A study of Homo sapiens with 21 samples.

Results

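The genes described here are 10 repressors and output genes of the circadian clock: BHLHE40, BHLHE41, PER1, PER2, PER3, CRY1, CRY2, NR1D1, NR1D2 and DBP. They were chosen by symbol through the gene identifiers of 4 expression tables. The choice set no rule on their values but was made with earlier results of these data known. They are 10 of the 20970 genes found in any of the tables. All 10 were present in 3 tables and 9 in the fourth, which has no row for BHLHE41. The study asked how hypoxia and METTL4, a methyltransferase that places N6-methyladenine in DNA, change gene expression in human cancer cell lines. FADU is a squamous carcinoma line of the pharynx, and BFTC909 (BFTC-909 in the labels) is a urothelial carcinoma line of the upper urinary tract. Each knockdown table holds 6 RNA-seq libraries, 2 per group: Scramble-si cells (Scr-si here) in normoxia at 18% O2, Scr-si cells in hypoxia at 1% O2, and METL4-si cells, written METTL4-si here, in hypoxia, with 18 h of exposure. The overexpression table holds 2 libraries each of FADU control cells, METTL4-OE cells and cells overexpressing the long noncoding RNA RP11-390F4.3, in normoxia. The last table holds 1 library of wild type CRISPR control FADU cells and 1 library of each of 2 METTL4-DPPW-mut clones, in which prime editing changed the catalytic motif of METTL4, in hypoxia. Each clone was grown from a single cell, and the overexpressing cells were stable transfectants. Nothing in the labels says that the 2 libraries of a group came from separate cultures, so p-values measure the spread between these libraries, which may be technical.

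The clock of mammalian cells is a transcription loop. The activators CLOCK and BMAL1 bind E-box elements and switch on the PER and CRY genes, whose proteins return to the nucleus and block the activators. NR1D1 and NR1D2, known as REV-ERB alpha and beta, are nuclear receptors that repress the gene of BMAL1, and DBP is an output gene of the loop whose protein activates genes through D-box elements. BHLHE40 and BHLHE41, also called DEC1 and DEC2, are repressors that compete for E-boxes, and both are known targets of the hypoxia-inducible factors, which bind the core motif ACGTG. All libraries of a group were taken at a single time point without a stated synchronization of the cells, so levels are averages over whatever clock phases the cells held.

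The promoters of both BHLHE genes, PER1, NR1D1 and NR1D2 are shown as examples of members with called changes. In all but that of NR1D1 an E-box is present, whose letters hold the core hypoxia motif. Those shown include every member with an E-box, while PER2, PER3, CRY1, CRY2 and DBP also had called changes and are not shown. The choice therefore shows no link between calls and motifs. The sequences are from RefSeq on GRCh38.p14 and run 5′ to 3′ on the gene's strand, from 250 bases before the transcription start to 50 after it. Capitals mark CACGTG, the E-box, and ACGTG or its reverse complement CACGT, so that each E-box also holds the core hypoxia motif on both strands. The windows of the first 4 lie at chr3:4979187-4979486 on the plus strand for BHLHE40, and on the minus strand at chr12:26124988-26125287 for BHLHE41, chr17:8152355-8152654 for PER1 and chr17:40100540-40100839 for NR1D1. That of NR1D2, the second of its windows, lies at chr3:23945871-23946170 on the plus strand.
BHLHE40: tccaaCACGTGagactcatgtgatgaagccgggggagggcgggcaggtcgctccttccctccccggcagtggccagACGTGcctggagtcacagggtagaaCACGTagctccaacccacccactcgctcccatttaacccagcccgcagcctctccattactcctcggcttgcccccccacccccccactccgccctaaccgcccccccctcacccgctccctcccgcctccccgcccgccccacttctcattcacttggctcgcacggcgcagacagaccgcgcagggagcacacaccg
BHLHE41: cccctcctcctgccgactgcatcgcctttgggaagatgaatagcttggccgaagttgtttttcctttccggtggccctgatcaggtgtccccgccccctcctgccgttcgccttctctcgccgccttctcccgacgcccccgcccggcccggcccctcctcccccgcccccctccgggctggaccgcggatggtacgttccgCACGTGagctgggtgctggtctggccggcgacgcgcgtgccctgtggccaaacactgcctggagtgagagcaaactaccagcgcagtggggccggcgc
PER1: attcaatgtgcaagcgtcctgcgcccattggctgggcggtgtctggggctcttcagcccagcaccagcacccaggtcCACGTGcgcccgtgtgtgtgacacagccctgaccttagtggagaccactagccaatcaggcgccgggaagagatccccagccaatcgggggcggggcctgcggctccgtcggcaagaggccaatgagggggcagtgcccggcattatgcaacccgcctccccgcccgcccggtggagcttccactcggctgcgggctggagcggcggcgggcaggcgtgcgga
NR1D1: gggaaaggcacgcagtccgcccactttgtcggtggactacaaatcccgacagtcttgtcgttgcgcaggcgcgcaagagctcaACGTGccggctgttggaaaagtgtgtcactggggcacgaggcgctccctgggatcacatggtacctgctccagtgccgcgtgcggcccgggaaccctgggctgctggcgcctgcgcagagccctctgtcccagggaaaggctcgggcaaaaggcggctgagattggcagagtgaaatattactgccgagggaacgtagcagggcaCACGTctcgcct
NR1D2: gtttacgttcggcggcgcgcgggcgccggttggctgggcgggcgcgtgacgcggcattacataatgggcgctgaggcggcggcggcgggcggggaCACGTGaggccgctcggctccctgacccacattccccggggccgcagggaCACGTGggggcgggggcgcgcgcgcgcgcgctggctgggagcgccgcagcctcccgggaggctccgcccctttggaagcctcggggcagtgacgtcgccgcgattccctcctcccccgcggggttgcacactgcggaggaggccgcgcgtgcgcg
All 10 members matched the promoter table, with 13 windows because PER3, CRY2 and NR1D2 have 2 each. Searched on both strands, CACGTG was found in 4 of the 13 windows, those of BHLHE40, BHLHE41, PER1 and the second window of NR1D2, against 7.26% of 35116 windows of the same length in the table. ACGTG was found in 9 windows of 8 members, all but PER3 and DBP, against 21.41% of all windows. The variant GCGTG stood in 8 windows of 7 members against 36.54%, and the receptor half-site AGGTCA in 3 windows of 2 members against 13.83%. The windows of PER3 overlap and hold the same GCGTG sites, so these are counted in both. The D-box, searched as TTATGTAA or TTACGTAA, stood in 3 windows, of PER2, PER3 and the second of NR1D2, against 1.01%. A match describes the letters of the window and not a bound site.

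Values are the authors' CPM, reads of a gene scaled to library size, normalized by the TMM method, and each library held 17.8 to 25.4 M reads on genes. The knockdown labels were checked on METTL4, which in FADU was at 24.3 and 27.1 in METTL4-si and at 26.6 and 25.3 in Scr-si hypoxia and so was not reduced (log2 fold change -0.02, limma adjusted p = 0.900). In BFTC909 it was 14.4 and 12.2 in METTL4-si against 19.0 and 15.6, a log2 fold change of -0.36 that was not called (limma adjusted p = 0.0717). In METTL4-OE it was raised to 158 and 139 from 35.4 and 32.7. Of 10 known hypoxia genes, 9 rose in hypoxia in FADU, while VEGFA was called lower (-0.41), and 10 rose in BFTC909. In the METTL4-si libraries, labelled hypoxia, 9 of the 10 were called lower than in Scr-si hypoxia in FADU, with VEGFA higher (0.45), and 10 were lower in BFTC909. Their summed level in FADU was 920 and 998 in METTL4-si, 905 and 907 in Scr-si normoxia and 5211 and 5896 in Scr-si hypoxia, and against normoxia 0 were called lower and 2 higher (median log2 fold change 0.04). In BFTC909 the sum was 1283 and 1103 in METTL4-si, 712 and 746 in normoxia and 2873 and 2891 in hypoxia, and against normoxia 5 were called higher and 1 lower. The part of these levels in the changes of the members was not tested. FADU held all 6 squamous markers searched, whereas BFTC909 had no row for KRT5, KRT14, CDH1, KRT20 or any uroplakin. Of the 7 urothelial markers searched, PPARG and GATA3 had a row in BFTC909. They summed to 29.0 and 26.7 in normoxia, with 1 of them at a value of at least 1. These markers therefore do not settle its labelled urothelial origin. The fibroblast list, with 6 of 7 genes in the BFTC909 table, summed to 1245 and 1344 in normoxia, 4692 and 4902 in hypoxia and 2617 and 2822 in METTL4-si, with 5 of the 6 called higher in hypoxia and, in METTL4-si against Scr-si hypoxia, 1 higher and 3 lower, and its part in the changes of the members there was not tested. In FADU, with 2 of 7 genes in the table, it summed to 4.40 to 25.6 outside METTL4-si replicate 1 and to 116 in that library. The urothelial list in FADU summed to 226 in that library, 49.9 in Scr-si normoxia replicate 1 and 6.78 to 11.3 in the other 4. The squamous list summed to 1924 and 2086 in FADU METTL4-si against 3108 and 3433 in Scr-si hypoxia, with 5 of 6 called lower and 0 higher. Its part in the changes of the members was not tested. In addition, 3 libraries had higher markers of other cells than their replicate. In FADU METTL4-si replicate 1 the breast markers TFF1 and ESR1 reached 134.7 and 77.2, and in FADU Scr-si normoxia replicate 1 they reached 26.2 and 16.7. TFF1 was at 0 in the other 4 FADU libraries, and ESR1 at 2.71 to 7.37 there. The breast list, with 4 of 6 genes in the FADU table, summed to 261 and 52.0 in these 2 libraries and to 3.13 to 8.04 in the other 4. In BFTC909 METTL4-si replicate 2 the epithelial keratin KRT8 was at 715.0 against 2.6 to 7.6 in the other 5 libraries, and the epithelial list, with 3 of 5 genes in that table, summed to 1121 against 82.5 and 84.4 in normoxia, 21.2 and 21.4 in Scr-si hypoxia and 31.0 in the other METTL4-si library. In these bulk samples fewer cells of a type and less RNA per cell cannot be told apart. Calls of members and of the named genes of other lists were recomputed without these 3 libraries, and the calls that this changed in the comparisons given are named. A group left with 1 library is then assumed to vary like the other groups.

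On GRCh37 the other members lie at chr17:8043790-8059824 (PER1, minus strand), chr2:239152685-239198743 (PER2, minus), chr1:7844351-7905237 (PER3, plus), chr12:107385142-107487327 (CRY1, minus), chr11:45868669-45904799 (CRY2, plus), chr3:23986777-24022108 (NR1D2, plus) and chr19:49133287-49140636 (DBP, minus), and the positions of BHLHE40, BHLHE41 and NR1D1 are given with their results. Per kilobase of exon, BHLHE40 was the most abundant member in every group of libraries, and the order below it differed by line. In FADU Scr-si normoxia its level per kilobase was 50.5 and 53.2, followed by NR1D2 (8.36 and 8.94) and PER2 (7.70 and 7.81). CRY1 came next at 4.83 and 4.99 and NR1D1 at 3.30 and 4.09, while PER3, CRY2 and PER1 overlapped between 1.92 and 2.23. DBP lay at 0.38 and 0.41, and BHLHE41 was last at 0.086 and 0.104, with 8 and 9 reads in all. In BFTC909 Scr-si normoxia the level per kilobase of BHLHE40 was 40.1 and 42.7, then NR1D2 at 24.2 and 25.9, BHLHE41 at 11.2 and 11.3, and CRY1 at 10.3 and 10.9. There PER1 (0.306 and 0.409) and DBP (0.048 and 0.065) were last, and CRY2, PER3 and PER2 overlapped between 1.68 and 1.81. BHLHE41 was thus last in the order in FADU and just below NR1D2 in BFTC909, as values side by side from tables that were normalized separately. BHLHE41 passed the filter on low values, a value of at least 1 in 2 libraries of a table, in BFTC909 only, so FADU comparisons tested 9 members. In BFTC909, DBP passed it only through the 2 METTL4-si libraries.

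**Figure D1:**
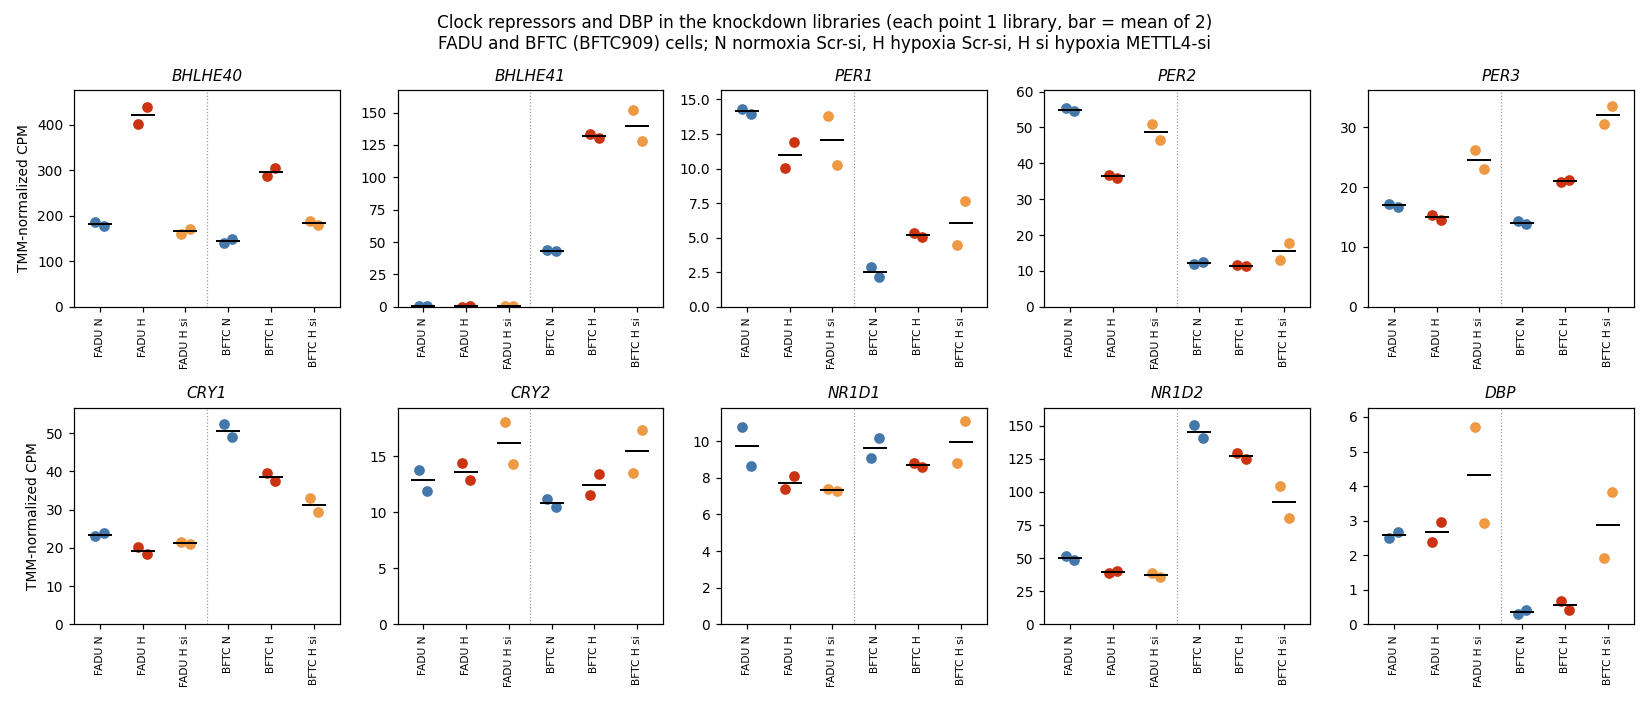
Normalized CPM of the 10 members (vertical axis of each panel, starting at 0) in each knockdown library of FADU and BFTC909 cells, by group; each point is 1 library and each bar the mean of 2. BHLHE40 was higher in hypoxia than in normoxia in both lines and lower in the METTL4-si libraries, and BHLHE41 was near 0 in FADU and between 43.2 and 152.0 in BFTC909.

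In FADU cells hypoxia raised BHLHE40 and lowered PER2, and the 7 other tested members were not called. A gene was called at a limma adjusted p under 0.05, adjusted over all 16324 tested genes, and at least 1.3-fold on the log2(value + 1) scale. BHLHE40 (chr3:5021122-5027008 on GRCh37, plus strand) had values of 187 and 177 in normoxia and 402 and 439 in hypoxia. It shares 451 exon bases with BHLHE40-AS1, whose values were between 0.42 and 2.63 in every library that lists it. The BHLHE40 groups did not overlap, and the log2 fold change was 1.20 ± 0.07 (SE, limma adjusted p = 0.000283), or 2.30-fold. PER2, a core repressor that partners with the CRY proteins, went from 55.4 and 54.5 to 36.8 and 35.9, a log2 fold change of -0.58 ± 0.07 (limma adjusted p = 0.00317). Its call was lost without Scr-si hypoxia replicate 2 (log2 fold change -0.57, adjusted p = 0.0517). Of 9 members 1 was called higher, where 9.73% of all tested genes were, and 1 was called lower, where 9.65% were.

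The other members of FADU hypoxia were not called. NR1D2, a repressor of the BMAL1 gene, passed the adjusted p but not the fold threshold, at 51.8 and 48.4 in normoxia and 39.0 and 40.6 in hypoxia (log2 fold change -0.32, limma adjusted p = 0.0282). CRY1 was at 23.1 and 23.8 in normoxia and 20.1 and 18.5 in hypoxia, PER1 at 14.3 and 13.9 against 10.1 and 11.9, PER3 at 17.2 and 16.7 against 15.4 and 14.5, and NR1D1 at 10.8 and 8.67 against 7.37 and 8.07. The adjusted p-values of these 4 lay from 0.0645 to 0.243. With PER2 and NR1D2, 6 of the 9 members had hypoxia values all below those of normoxia, as had 39.5% of all tested genes. CRY2 (13.8 and 11.9 against 14.4 and 12.9) and DBP (2.49 and 2.68 against 2.38 and 2.96) overlapped. The median log2 fold change of the 9 members was -0.27, beside -0.03 over all genes tested. Without the 2 FADU libraries with breast markers, BHLHE40 and PER2 were still the members called, with log2 fold changes of 1.24 and -0.57.

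In BFTC909 cells hypoxia raised both BHLHE genes, PER1 and PER3, and lowered CRY1. BHLHE40 went from 141 and 150 to 287 and 305, a log2 fold change of 1.02 ± 0.07 (limma adjusted p = 5.67e-05), or 2.03-fold. BHLHE41 (chr12:26272963-26277970 on GRCh37, minus strand) went from 43.7 and 43.2 to 133 and 130, the largest change among the members here, with a log2 fold change of 1.58 ± 0.09 (limma adjusted p = 3.28e-05), or 2.98-fold. In neither gene did the groups overlap. BHLHE41 shares 162 exon bases with SSPN on the opposite strand, and SSPN also rose, from 8.59 and 8.31 to 25.7 and 23.1. The strand setting of the counting is not given in the sources used here, so reads in the shared bases may belong to either gene.

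Among the core repressors of BFTC909, PER3 went from 14.4 and 13.8 to 20.9 and 21.2 (log2 fold change 0.55 ± 0.09, limma adjusted p = 0.00226). PER1 went from 2.86 and 2.14 to 5.35 and 5.02 (0.83 ± 0.22 on the log2 scale, limma adjusted p = 0.0191). CRY1, which blocks the activators directly, went from 52.3 and 49.0 to 39.6 and 37.6 (log2 fold change -0.38 ± 0.09, limma adjusted p = 0.00983). PER2 was at 11.9 and 12.5 in normoxia and 11.6 and 11.2 in hypoxia, with an interval of the log2 fold change from -0.43 to 0.25 (95%). NR1D1, NR1D2, CRY2 and DBP had log2 fold changes from -0.19 to 0.18, none called. Of 10 members 4 were called higher, where 17.9% of tested genes were, and 1 lower, where 18.3% were. The median over the members was 0.18 beside -0.02 over all genes. These figures include DBP, which was not called and passed the filter there only through the METTL4-si libraries.

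The calls of PER1 and CRY1 in BFTC909 hypoxia were the least stable. CRY1 lost its call without any single library of the 4 compared (log2 fold changes from -0.43 to -0.34, adjusted p from 0.052 to 0.104). PER1 lost its call without Scr-si normoxia replicate 2 (0.68, adjusted p = 0.121), Scr-si hypoxia replicate 1 (0.79, adjusted p = 0.107) or Scr-si hypoxia replicate 2 (0.87, adjusted p = 0.0848). PER3 shares 868 exon bases with UTS2 on the opposite strand, whose values were 1.55 to 2.01 in normoxia and 2.99 to 3.49 in hypoxia, far below those of PER3.

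**Figure D2:**
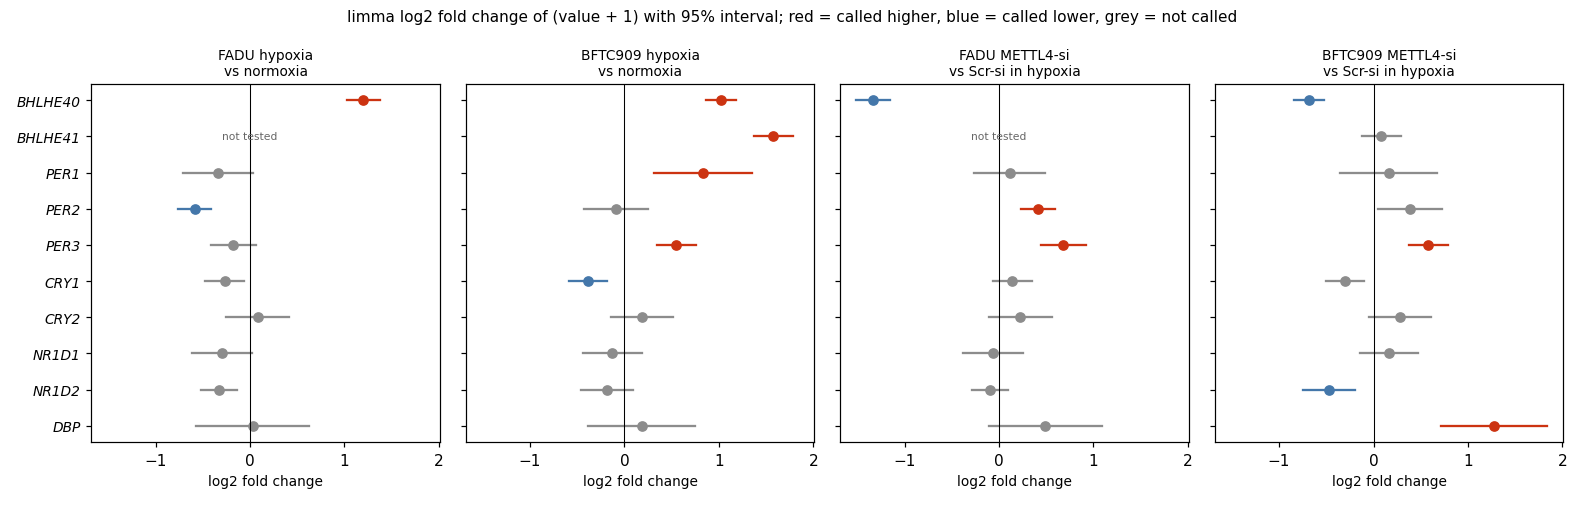
Log2 fold change of each member (horizontal axis, log2 of value + 1) with its 95% interval from limma, in hypoxia against normoxia (left pair of panels) and in METTL4-si against Scr-si in hypoxia (right pair), for FADU and BFTC909; red marks members called higher, blue lower and grey not called. BHLHE40 was called higher in hypoxia and lower in METTL4-si in both lines; PER3 was called higher in METTL4-si in both lines; BHLHE41 was not tested in FADU, and DBP in BFTC909 passed the filter only through the METTL4-si libraries.

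Among FADU cells in hypoxia, the METTL4-si libraries had less BHLHE40 than Scr-si and more PER2 and PER3, although METTL4 itself was not reduced in them. The comparison shares the Scr-si hypoxia libraries with the one against normoxia, so the opposite signs of both are not independent. BHLHE40 was at 161 and 172 against 402 and 439, a log2 fold change of -1.33 ± 0.07 (limma adjusted p = 0.00016), and its METTL4-si values lay below those of normoxia. PER3 was at 26.2 and 23.0 against 15.4 and 14.5 (log2 fold change 0.68 ± 0.10, limma adjusted p = 0.0033), higher than in any other FADU knockdown library. PER2 was at 50.8 and 46.6 against 36.8 and 35.9 (0.41 ± 0.07 on the log2 scale, limma adjusted p = 0.00674). Of 9 members 2 were called higher, where 12.5% of tested genes were, and 1 lower, where 15.3% were.

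DBP varied most between the 2 FADU METTL4-si libraries, at 5.70 in replicate 1, which holds the breast markers, and 2.94 in replicate 2, against 2.38 and 2.96 in Scr-si hypoxia (log2 fold change 0.49 ± 0.25, limma adjusted p = 0.176). Without the 2 libraries with breast markers the log2 fold change of DBP was 0.10, and that of PER2 was 0.35, below the fold threshold, while BHLHE40 (-1.29) and PER3 (0.59) were still called. PER2 also lost its call without Scr-si hypoxia replicate 1 (adjusted p = 0.0584) or replicate 2 (adjusted p = 0.0705). Without METTL4-si replicate 2, the other library of that group, DBP (0.87) and CRY2 (0.38) were called as well. More of all tested genes were also called then. NR1D1 and NR1D2 differed little from Scr-si hypoxia, with intervals of the log2 fold change from -0.39 to 0.25 and from -0.29 to 0.09.

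In BFTC909, METTL4-si libraries had less BHLHE40 and NR1D2 and more PER3 than Scr-si hypoxia, while BHLHE41 was not called. BHLHE40 was at 189 and 179 against 287 and 305, a log2 fold change of -0.68 ± 0.07 (limma adjusted p = 0.000481). BHLHE41 was at 152 and 128 against 133 and 130 (log2 fold change 0.08, interval -0.13 to 0.29, limma adjusted p = 0.522), so its groups overlapped where those of BHLHE40 did not. PER3 was at 30.6 and 33.5 against 20.9 and 21.2 (0.58 ± 0.09 on the log2 scale, limma adjusted p = 0.00298). NR1D2 was at 104 and 80.2 against 130 and 125 (log2 fold change -0.47 ± 0.12, limma adjusted p = 0.0209). DBP was at 1.92 and 3.83, or 41 and 76 reads, against 0.67 and 0.43, or 14 and 9 reads. DBP passed the filter only through these METTL4-si libraries, so it had to be high there to enter, and its values are a description with no test.

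Replicate 2 of METTL4-si in BFTC909, the library with epithelial keratins, was the higher for DBP, PER1 (4.50 and 7.65), PER2 (13.0 and 17.8) and CRY2 (13.6 and 17.4), and the lower for NR1D2. Without it BHLHE40 (-0.65) and PER3 (0.52) were still called and NR1D2 (-0.28) was not. Without METTL4-si replicate 1 instead, CRY1 was also called lower and CRY2, PER1 and PER2 higher, and without Scr-si hypoxia replicate 2 NR1D2 was lost (adjusted p = 0.104). NR1D2 was also lost without Scr-si hypoxia replicate 1 (adjusted p = 0.133). More of all tested genes were also called without METTL4-si replicate 1. With all libraries and leaving DBP aside, 1 of 9 members was called higher, where 13.2% of tested genes were, and 2 lower, where 11.7% were. SPHK2, which shares 661 exon bases with DBP on the opposite strand, was at 8.11 and 9.57 in METTL4-si and 8.00 and 9.36 in Scr-si hypoxia.

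Against normoxia, BHLHE40 was called in neither line in the METTL4-si libraries in hypoxia, and BHLHE41 was called higher in BFTC909. In FADU, BHLHE40 was near its normoxia level (log2 fold change -0.13, interval -0.31 to 0.05, limma adjusted p = 0.229). In BFTC909 it was at 189 and 179 against 141 and 150 in normoxia, a log2 fold change of 0.34 that passed the adjusted p (0.00449 by limma) but not the 1.3-fold threshold, except without Scr-si normoxia replicate 2 (0.38, adjusted p = 0.0296). BHLHE41 in BFTC909 was 3.16-fold higher than in normoxia (log2 fold change 1.66 ± 0.09, limma adjusted p = 1.84e-05). In FADU 1 of 9 members was called higher, PER3 (0.51), where 8.13% of tested genes were, and 1 lower, NR1D2 (-0.42), where 13.5% were. Both FADU calls were lost without Scr-si normoxia replicate 1 (adjusted p = 0.0776 and 0.0914) or replicate 2 (adjusted p = 0.104 and 0.0685), which left 0 members called by limma, against 1 and 3 at an unadjusted p under 0.05 with the same fold threshold, and that of NR1D2 also without METTL4-si replicate 2 (-0.37). Leaving out a normoxia library also lowered the number of all tested genes called. Without METTL4-si replicate 1, with breast markers, PER1 was called lower (-0.42).

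In BFTC909, leaving DBP aside for the same reason as above, 4 of 9 members were called higher in METTL4-si hypoxia than in Scr-si normoxia, where 24.4% of tested genes were, and 2 lower, where 23.2% were. Those higher were BHLHE41, PER3 (1.13), PER1 (0.99) and CRY2 (0.47), and those lower were CRY1 (-0.68) and NR1D2 (-0.66), all as log2 fold changes. CRY1 was at 33.1 and 29.4 in METTL4-si hypoxia, below the 52.3 and 49.0 of normoxia. Without METTL4-si replicate 2, with epithelial keratins, CRY2 (0.30) lost its call and the other 5 kept theirs. CRY2 was also lost without Scr-si normoxia replicate 1 (adjusted p = 0.079) or replicate 2 (adjusted p = 0.132), and PER1 without Scr-si normoxia replicate 2 (adjusted p = 0.0538).

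In the overexpression experiment the RP11-390F4.3-OE cells had the highest BHLHE40 values of the groups compared there, and METTL4-OE cells did not have a call of BHLHE40. The columns of the RP11-390F4.3-OE libraries were assigned by elimination, since their names do not match a label, and the level of the RNA itself was not analysed here. BHLHE40 was at 175 and 158 in control cells, 192 and 179 in METTL4-OE and 647 and 641 in RP11-390F4.3-OE. The change in RP11-390F4.3-OE was 3.86-fold (log2 fold change 1.95 ± 0.05, limma adjusted p = 5.62e-12), while in METTL4-OE the log2 fold change was 0.16 ± 0.05 (limma adjusted p = 0.0289), below the fold threshold. By comparison, 9 of 10 hypoxia genes were called higher in METTL4-OE and 10 of 10 in RP11-390F4.3-OE.

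In METTL4-OE cells NR1D1 rose and PER3 and DBP fell. PER3 was at 9.69 and 9.47 against 19.7 and 19.3 in control cells, the largest change of a member here (log2 fold change -0.95 ± 0.08, limma adjusted p = 9.46e-07). DBP was at 1.74 and 1.40 against 2.67 and 2.51 (log2 fold change -0.48 ± 0.15, limma adjusted p = 0.0204), and it was lost without control replicate 1 (adjusted p = 0.081) or METTL4-OE replicate 2 (adjusted p = 0.14). NR1D1 (chr17:38249046-38256842 on GRCh37, minus strand) was at 9.89 and 8.84 against 6.96 and 5.91 (log2 fold change 0.48 ± 0.11, limma adjusted p = 0.00277), and fell below the fold threshold without control replicate 2 (0.38). CRY1 (0.28) and NR1D2 (-0.31) passed the adjusted p but not the fold threshold. Of 9 members 1 was called higher, where 8.00% of tested genes were, and 2 lower, where 10.5% were.

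In RP11-390F4.3-OE cells BHLHE40, NR1D1, DBP and PER1 rose and no member was called lower. NR1D1 was at 18.4 and 20.0 against 6.96 and 5.91 (log2 fold change 1.44 ± 0.11, limma adjusted p = 1.21e-07). DBP was at 4.79 and 6.34 against 2.67 and 2.51 (0.86 ± 0.15 on the log2 scale, limma adjusted p = 0.000315), and PER1 at 17.1 and 16.3 against 10.4 and 11.1 (log2 fold change 0.60 ± 0.10, limma adjusted p = 0.0002). PER2 was at 40.3 and 41.1 against 47.7 and 47.6, a log2 fold change of -0.22 that did not reach the fold threshold. CRY1 (0.32) did not reach it either, except without RP11-390F4.3-OE replicate 2 (0.39). Of 9 members 4 were called higher, where 16.5% of tested genes were, and 0 lower, where 12.5% were by the limma rule; at an unadjusted p under 0.05 and by edgeR the number called lower was also 0. NR1D1 shares 473 exon bases with THRA on the opposite strand, and THRA rose as well, from 12.3 and 12.1 to 23.8 and 24.2.

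**Figure D3:**
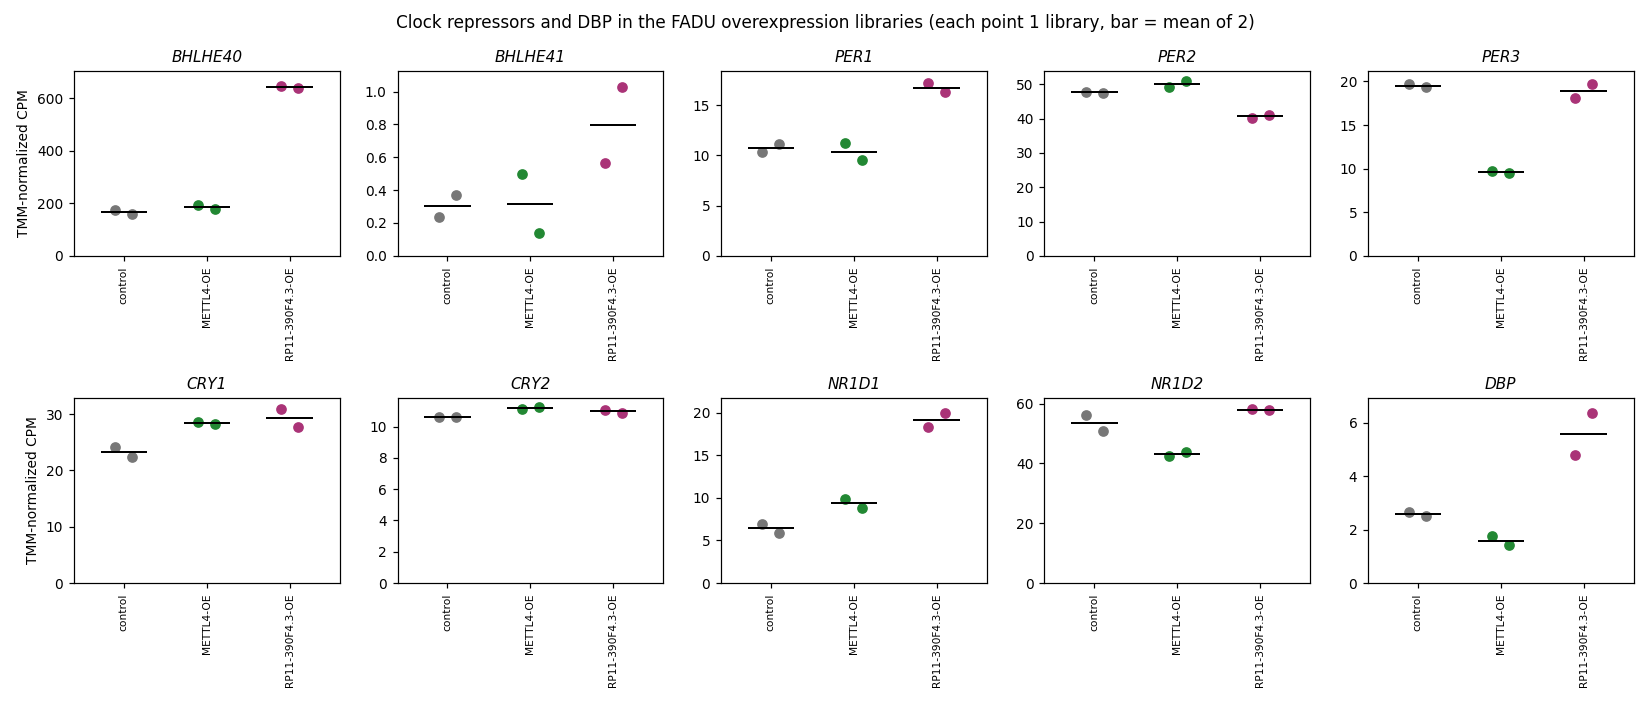
Normalized CPM of the 10 members (vertical axis of each panel, starting at 0) in FADU control, METTL4-OE and RP11-390F4.3-OE libraries; each point is 1 library and each bar the mean of 2. RP11-390F4.3-OE stands apart in BHLHE40 (647 and 641) and NR1D1 (18.4 and 20.0), and METTL4-OE in PER3 (9.69 and 9.47).

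Set directly against METTL4-OE, a comparison added after the values had been seen, RP11-390F4.3-OE cells had 6 of 9 members higher, where 18.4% of tested genes were, and 0 lower, where 13.3% were; 0 were also lower at an unadjusted p under 0.05 and by edgeR. The log2 fold changes were 1.79 for BHLHE40, 1.34 for DBP, 0.96 for NR1D1, 0.91 for PER3, 0.64 for PER1 and 0.42 for NR1D2. Neither PER3 nor NR1D2 was called in RP11-390F4.3-OE against control cells. CRY1 and CRY2 differed by log2 fold changes of 0.04 and -0.02.

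In the METTL4 mutant clones in hypoxia, 8 of the 9 members in the table were lower than the control library in both clones, as were 40.7% of all genes, without replicates and so with no test. The level of METTL4 itself does not check an edit of its coding sequence. Both ratios of a gene share the single control library. The list of 10 hypoxia genes summed to 3104 in the control and to 2332 and 2211 in clones 1 and 2. The part of these levels in the changes of the members was not tested. BHLHE40 was at 324 in the control and 192 and 217 in clones 1 and 2, log2 ratios of -0.75 and -0.58. NR1D1 was at 14.0 against 6.91 and 4.11, the largest mean ratio among the members. PER1 was at 13.4 against 7.69 and 9.44, DBP at 5.22 against 3.22 and 2.17, and PER3 at 19.3 against 14.3 and 7.01. These 5 members were at least 1.3-fold lower in both clones, where 11.8% of the 15719 genes of the table were, and 0 were higher, where 8.94% were. PER2 (28.6 against 18.9 and 24.6), CRY1 (8.68 against 6.41 and 7.59) and CRY2 (8.07 against 5.30 and 6.98) passed the threshold in clone 1 only. NR1D2 went in opposite directions, at 37.8 in the control, 47.2 in clone 1 and 27.4 in clone 2. THRA, the neighbour of NR1D1, was also lower, at 8.55 and 9.31 against 11.4.

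**Figure D4:**
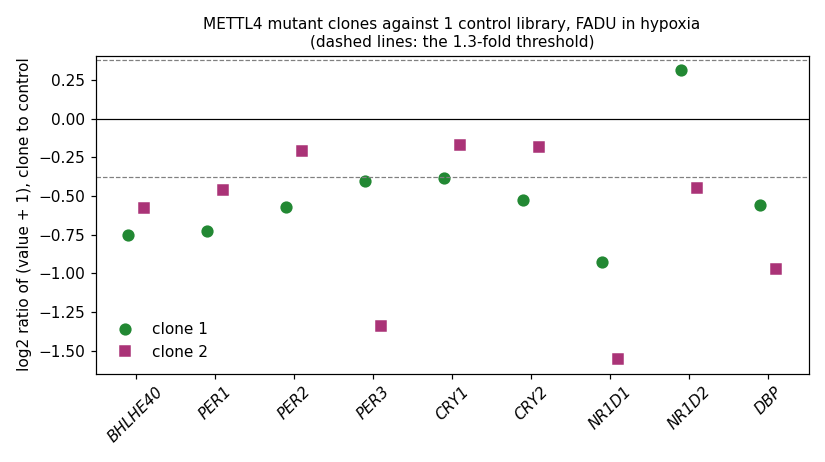
Log2 ratio of (value + 1) of each METTL4 mutant clone to the single control library (vertical axis) for the 9 members in the table; circles are clone 1 and squares clone 2, and dashed lines mark 1.3-fold. BHLHE40, PER1, PER3, NR1D1 and DBP lie below the lower line in both clones, and NR1D2 lies on opposite sides of 0.

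The activators of the loop formed a list of 7, chosen like the members with earlier results known. Of these, 5 were tested in each table. In FADU hypoxia 2 were called higher, RORA among them, where 9.73% of tested genes were, and 1 lower, where 9.65% were. In BFTC909 hypoxia BMAL1 was called higher, where 17.9% of tested genes were, and BMAL2 lower, where 18.3% were. RORA is left aside there for the reason given below. RORA, which activates the BMAL1 gene at the elements that NR1D1 and NR1D2 repress, went from 9.85 and 9.47 to 37.9 and 42.5 in FADU hypoxia (log2 fold change 1.95) and was at 10.5 and 12.2 in METTL4-si. In BFTC909 RORA was at 0.04 and 0.21 in normoxia, 6.41 and 5.97 in hypoxia and 0.47 and 0.60 in METTL4-si, so it passed the filter there only through the hypoxia libraries and its call in that table is no support. BMAL2 (ARNTL2), a partner of CLOCK, went in opposite directions: 59.4 and 65.5 to 142 and 137 in FADU hypoxia (log2 fold change 1.15) and 70.9 and 70.3 to 36.8 and 36.2 in BFTC909 hypoxia (-0.93). The difference between lines was not tested, as the tables were normalized separately.

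BMAL1 (ARNTL) was called higher in BFTC909 hypoxia (log2 fold change 0.45), in METTL4-OE (0.46) and in RP11-390F4.3-OE (0.43), and not in FADU hypoxia (0.21). CLOCK was not called in any of these 4 comparisons. RORB was called lower in FADU hypoxia (-0.67), at 0.76 and 1.32 against 2.16 and 2.28, and NPAS2, tested in BFTC909 only, rose in METTL4-si against Scr-si hypoxia (0.89, and 1.00 without METTL4-si replicate 2). Without that library BMAL1 was also called higher in this comparison (0.51, against 0.34 with it). BMAL2 was called higher in BFTC909 METTL4-si too (0.57, and 0.78 without replicate 2). In FADU METTL4-si BMAL2 (-1.53) and RORA (-1.75) were called lower. The counts of activators higher and lower in FADU METTL4-si were 0 and 2, where 12.5% and 15.3% of tested genes were. In BFTC909 METTL4-si they were 2 and 1, where 13.2% and 11.7% were. The 1 lower there was RORA, which is left aside as above. In METTL4-OE 3 activators were called higher and 0 lower, where 8.00% and 10.5% of tested genes were. In RP11-390F4.3-OE it was also 3 and 0, where 16.5% and 12.5% were. In METTL4-OE and RP11-390F4.3-OE, RORA had log2 fold changes of 0.64 and 1.78 and BMAL2 of 0.58 and 1.26. In the METTL4 mutant clones RORA was at 23.5 and 23.8 against 38.4 in the control, and BMAL2 was higher, at 66.6 and 48.2 against 27.0.

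Among 11 kinases and ubiquitin ligase parts that act on the PER and CRY proteins, 10 were tested. In FADU hypoxia 1 was called higher, where 9.73% of tested genes were, and 1 lower, where 9.65% were. In FADU METTL4-si it was 0 and 4, where 12.5% and 15.3% were. In BFTC909 hypoxia it was 1 and 1, where 17.9% and 18.3% were. In BFTC909 METTL4-si it was 0 and 0 by limma (and 0 and 0 by edgeR and at an unadjusted p under 0.05), where 13.2% and 11.7% were by limma. In METTL4-OE it was 1 and 0, where 8.00% and 10.5% were, and in RP11-390F4.3-OE 2 and 0, where 16.5% and 12.5% were. PRKAA2, a catalytic subunit of AMPK, which marks CRY1 for degradation, rose in hypoxia in FADU (log2 fold change 1.45) and BFTC909 (1.32) and in RP11-390F4.3-OE (1.18), and fell in FADU METTL4-si (-1.06, and -0.75 without the libraries with breast markers). FBXW11, a ubiquitin ligase part, fell in FADU METTL4-si (-0.67). CSNK1E, a kinase of the PER proteins, rose in METTL4-OE (0.51) and RP11-390F4.3-OE (0.78).

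Of 8 other clock-controlled genes, 6 were tested in each table. NFIL3, a repressor that binds the D-box elements that DBP activates, was called higher in hypoxia in FADU (log2 fold change 0.53) and BFTC909 (1.11), in METTL4-OE (0.49) and in RP11-390F4.3-OE (0.77), and lower in METTL4-si in FADU (-0.57) and BFTC909 (-0.45). The latter call was lost without METTL4-si replicate 2 (-0.36). TEF, a close relative of DBP, rose in BFTC909 hypoxia (0.74) and fell in METTL4-OE (-0.86), where DBP also fell. CIART, another repressor of the activators, was tested in the BFTC909 table and not in FADU, with values of 0.22 and 0.38 in normoxia, 2.75 and 2.53 in hypoxia and 0.33 and 1.36 in METTL4-si. It passed the filter only through the hypoxia libraries, so its values are a description. In FADU hypoxia 1 of the 6 was called higher and 0 lower, where 9.73% and 9.65% of tested genes were. In BFTC909 hypoxia, leaving CIART aside, NFIL3 and TEF were called higher and TIPIN lower, where 17.9% and 18.3% were. In FADU METTL4-si 0 were higher and 1 lower, where 12.5% and 15.3% were. In BFTC909 METTL4-si, leaving CIART aside, 0 were higher and NFIL3 lower, where 13.2% and 11.7% were. In METTL4-OE it was 1 and 1, where 8.00% and 10.5% were, and in RP11-390F4.3-OE also 1 and 1, where 16.5% and 12.5% were.

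The genes whose pattern was most like that of BHLHE40 over the 18 libraries of the 3 replicated tables were MXI1 (Pearson r = 0.981), ZNF436 (0.973), ARRDC3 (0.972) and RAB11FIP5 (0.966), after each table had been centred on its mean. The fifth had no symbol in the tables used. Of the other members, NR1D1 had r = 0.632 with BHLHE40 and PER2 had -0.687. For DBP the most alike were HELZ2 (0.974), SHISA5 (0.973), GAA (0.950), RAB3D (0.941) and MAST3 (0.935), and PER3 was at 0.815. The libraries of a group share their treatment, and these values describe the 9671 and 9672 genes ranked. Ranked genes needed a mean value of at least 5 in each table, which DBP did not reach. The DBP values in BFTC909 METTL4-si, through which it passed the filter there, also enter its correlations. The list for DBP is therefore a description and no support. Without the 3 libraries with markers of other cells, the 4 named for BHLHE40 were still among its 5 most alike (r from 0.971 to 0.988), NR1D1 was at 0.720 and PER2 at -0.812. For DBP only SHISA5 (0.959) and HELZ2 (0.957) were still among the 5, with PGM2L1 first (0.961), and PER3 was at 0.752.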

How the data were processed

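The deposited values are a normalized signal, CPM scaled by edgeR's TMM method by the authors, who used Trim Galore for trimming, HISAT2 for alignment to hg19 and htseq-count for gene counts; versions, annotation and strand setting are not given in the sources used here. Libraries were ribosome-depleted and stranded. Per the file headers, the deposited comparison tables hold a log2 fold change, a log2 mean CPM, an F statistic and a p-value per gene, and were not used. Symbols came from GENCODE v44 lifted to GRCh37, which held 96.83 to 97.39% of the identifiers. In the 3 replicated tables all values were whole reads within 0.02, and each value times the library's scale gave the reads used by edgeR. In the mutant table the scaling also took in the 40.9 to 43.0% of the columns assigned to no single gene.

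Limma with a trend was fitted to log2(value + 1) after genes under 1 in all but 1 library were dropped, which left 16324, 14869 and 15644 genes, and the 3 groups of a table shared the spread. A call needed a Benjamini-Hochberg adjusted p under 0.05, where the study used an unadjusted p, and at least 1.3-fold. Mutant clones were compared as log2 ratios with no test. Same-numbered libraries were not taken as pairs, since their deviations correlated from -0.0652 to 0.154 except at 0.648 between FADU normoxia and METTL4-si, whose replicates 1 share breast markers. Replicates differed by 2.11 to 28.9 times counting noise (chi-square per degree of freedom). Depth limits BHLHE41 in FADU (3 to 24 reads) and DBP. Intervals cover the spread between libraries.

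The members and lists were chosen with earlier results of these data known. All 10 members were named in every comparison; of the other lists, counts, the activators and up to 3 called genes with the largest change per comparison were named, together with the overlapping neighbours; 1 such result is not reported here. The fits were tested on simulated data. Alternatives were pseudocounts of 0.1 and 5, filters, median centring, compared groups alone, no trend, edgeR, unadjusted p, a replicate block and each library left out; the refits of the other lists and the correlations without the 3 libraries with markers of other cells were chosen after seeing the data. Analyses ran in Python 3.11.15 (pandas 2.3.3, numpy 2.4.6, matplotlib 3.10.9) and R 4.3.3 (limma 3.58.1, edgeR 4.0.16).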

Additional observations from a re-analysis of the deposited data

Results flagged for a closer look

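Some members went in opposite directions in FADU and BFTC909 with no overlap between the groups in either line. The difference between lines was not tested, because the tables were normalized separately. In hypoxia against normoxia, PER1 had a log2 fold change of -0.34 in FADU and 0.83 in BFTC909, and PER3 had -0.17 and 0.55. These FADU changes were not called. Of the 13595 genes tested in both lines, 18.73% showed such a pattern in this comparison.

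In METTL4-si against Scr-si hypoxia, CRY1 had a log2 fold change of 0.14 in FADU and -0.30 in BFTC909, neither of them called, where 13.8% of genes showed the pattern. In METTL4-si hypoxia against Scr-si normoxia, BHLHE40 had -0.13 and 0.34, PER1 -0.23 and 0.99, and PER2 -0.17 and 0.30, of which only PER1 in BFTC909 was called, and 8.36% of genes showed the pattern. The METTL4-si groups include FADU replicate 1 and BFTC909 replicate 2, the libraries with markers of other cells.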

How the results depend on the processing

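Over 9 comparisons the 36 calls of members, DBP in BFTC909 METTL4-si included, were recomputed under 576 alternatives in all, of which 540 kept the call, and no called log2 fold change reversed its sign. There were 23 calls that held under every alternative, among them every call of BHLHE40 and of BHLHE41 in BFTC909. These totals and the ranges below count DBP in BFTC909 METTL4-si, against Scr-si hypoxia and against normoxia. It passed the filter there only through the METTL4-si libraries, so the stability of those calls is no support. The number of members called moved by over 1.5 times in METTL4-OE against control, from 3 to 1 with a pseudocount of 5. All genes called higher and lower there went from 1251 and 1643 to 773 and 848. In the mutant clones the 5 members past 1.3-fold, all lower, became 2 with a pseudocount of 5. They became 8 in clone 1 alone and 6 in clone 2 alone. Of all 15719 genes, 1848 were lower by the main rule and 1013 with a pseudocount of 5. In clone 1 alone 2654 were lower and in clone 2 alone 2755, so the member counts moved with those of all genes. With each library left out in turn, where a lone library is assumed to vary like the other groups, members called ranged from 1 to 2 in FADU hypoxia against normoxia, 2 to 5 in FADU METTL4-si against Scr-si in hypoxia, 0 to 3 in FADU METTL4-si hypoxia against Scr-si normoxia, 3 to 5 in BFTC909 hypoxia against normoxia, 2 to 8 in BFTC909 METTL4-si against Scr-si in hypoxia, 6 to 8 in BFTC909 METTL4-si hypoxia against Scr-si normoxia, 2 to 3 in FADU METTL4-OE against control, 4 to 5 in FADU RP11-390F4.3-OE against control and 6 to 6 in FADU RP11-390F4.3-OE against METTL4-OE. The number of all tested genes called also moved when a library was left out, so these ranges are not a result about the members. The replicate block changed none of the 9 counts, for example 2 in FADU hypoxia and 6 in RP11-390F4.3-OE against METTL4-OE. Same-numbered libraries share only a number. Without the 2 FADU libraries with breast markers the counts were 2, 2 and 3 in place of 2, 3 and 2. Median centring took the call from PER2 in FADU METTL4-si (0.37), CRY1 in BFTC909 hypoxia (-0.31) and NR1D2 in RP11-390F4.3-OE against METTL4-OE (0.34), and gave one to CRY1 in BFTC909 METTL4-si (-0.40). A pseudocount of 5 took it from PER2 in FADU METTL4-si, CRY1 in BFTC909 hypoxia, CRY2 in BFTC909 METTL4-si against normoxia, and DBP and NR1D1 in METTL4-OE. By unadjusted p, PER2 was added in BFTC909 METTL4-si. With no filter BHLHE41 was called higher in RP11-390F4.3-OE (0.45) on 14 and 24 reads against 5 and 8. Median centring also moved the split of all genes called higher and lower, from 2667 and 2715 to 3215 and 2107 in BFTC909 hypoxia, from 1968 and 1736 to 1489 and 2510 in BFTC909 METTL4-si, from 2584 and 1955 to 1997 and 2852 in RP11-390F4.3-OE, and from 2876 and 2074 to 2276 and 2992 in RP11-390F4.3-OE against METTL4-OE.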
